A study of Drosophila melanogaster with 6 samples.

Results

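The features described here are the entries of the annotation class piRNA_cluster, taken by their class name from the feature tables of 6 eCLIP libraries. All 390 entries were kept, of 123041 features listed in at least 1 library. The most abundant entry, piRNAdb-15, is described first and apart from the other 389. The class was chosen by name, so no measured value decided which entries belong to it.

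piRNAs are small RNAs that guide Piwi proteins to transposon transcripts, and piRNA clusters are the loci, rich in transposon remnants, from which their long precursors are transcribed. Ovarian somatic cells of Drosophila rely on the uni-strand cluster flamenco on chromosome X, whereas dual-strand clusters such as those at 42A, 38C and 80F are known as sources in the germline. Asterix (Gtsf1) is a small zinc finger protein that Piwi needs to silence transposons in the nucleus.

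The cells were OSS cells, which derive from the somatic sheath of the Drosophila ovary, and in every group they carried a transfected plasmid from which Asterix with a C-terminal TEV-Strep tag was expressed under the act5c promoter, taken at 72 h after transfection. Crosslinked IP (2 libraries) is the RNA pulled down on Strep-binding beads from cells irradiated at 254 nm with 400 mJ, and crosslinked input (2 libraries) is the matching input. Non-crosslinked IP and non-crosslinked input (1 library each) are the same from cells that were not irradiated, so these groups have no replicate check. No library lacked the tagged protein, and RNA held by the beads cannot be told apart from RNA held by the protein. The labels do not say whether libraries of a group came from separate cultures, so p-values measure only the spread between these libraries.

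Annotated reads numbered 2206919 and 2921685 in crosslinked IP, 12391586 and 13658478 in crosslinked input, 2018241 in non-crosslinked IP and 12499302 in non-crosslinked input. Ribosomal RNA held 68.0% and 69.5% of them in crosslinked IP, 85.8% and 85.6% in crosslinked input, 60.1% in non-crosslinked IP and 87.0% in non-crosslinked input. Levels are given below in CPM, the reads of a feature scaled to a library of 1000000 annotated reads, and a floor of 3 reads lies between 1.03 and 1.49 CPM in the pull-downs and between 0.220 and 0.242 CPM in the inputs. The 5 ovarian somatic markers (tj, fs(1)Yb, piwi, Fas3 and zfh1) were all listed, with summed exon levels of 198 to 681 CPM over the 6 libraries. The 7 germline markers (vas, nos, aub, AGO3, rhi, osk and bam) summed to 13.2 to 14.4 CPM in crosslinked IP, 0.888 to 1.06 CPM in crosslinked input, 10.9 CPM in non-crosslinked IP and 0.807 CPM in non-crosslinked input. osk had no exon entry listed, and aub, a germline Piwi protein, held most of the crosslinked IP sum at 13.5 and 8.59 CPM. Most of the input sums was rhi, at 0.807 and 0.805 CPM (10 and 11 reads) in crosslinked input and 0.560 CPM (7 reads) in non-crosslinked input. rhi had 0.227 and 1.20 CPM in crosslinked IP and 0.248 CPM in non-crosslinked IP, so it did not share the rise of the sum in every pull-down. What part these reads have in any result below was not tested.

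Most reads of the class in the pull-downs fell on 1 entry, piRNAdb-15, whose genomic position is not given in the sources used here. It held 34603 and 52957 reads in crosslinked IP, against 8871 and 9707 reads in crosslinked input. In the cells that were not irradiated it held 31959 reads in non-crosslinked IP, against 7769 reads in non-crosslinked input. The inputs were sequenced several times deeper than the pull-downs, so the shares of annotated reads lie further apart than the reads do. The share was 1.57% and 1.81% in crosslinked IP and 0.0716% and 0.0711% in crosslinked input. That is 1.69% ± 0.173 in crosslinked IP, against 0.0713% ± 0.000367 in crosslinked input (SD, n = 2 each). Every pull-down library was above every input.

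The share of piRNAdb-15 without irradiation was 1.58% in non-crosslinked IP (95% Wilson interval 1.57% to 1.60%), against 0.0622% in non-crosslinked input (0.0608% to 0.0636%). Whether duplicate reads were removed is not given in the sources used here, and these intervals cover counting error only. The share was thus 23.7-fold higher in crosslinked IP than in crosslinked input, and 25.5-fold higher in non-crosslinked IP than in non-crosslinked input. Their order depended on rRNA: with rRNA left out of the total the log2 ratio was 3.44 with irradiation and 3.06 without it.

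edgeR's quasi-likelihood test was fitted across all 13471 features that passed its filter on low counts, with TMM scaling, which centres the comparison on the bulk of the features. In it the log2 fold change of piRNAdb-15 was 3.76 (SE 0.30, adjusted p = 3.59e-05). Scaled by library size alone it was 4.57, and by library size without rRNA 3.44. An exact permutation test of the shares, two-sided, gave p = 0.3333, the smallest that 2 libraries against 2 allow. Between the pull-downs, the level was 15679 and 18126 CPM in crosslinked IP, against 15835 CPM in non-crosslinked IP. The log2 difference was 0.29 (SE 0.40, adjusted p = 0.701 with edgeR), and its sign turned under other settings, from -0.20 to 0.45. The difference between the crosslinked and non-crosslinked IP over input ratios was 0.13 on the log2 scale (SE 0.56, adjusted p = 0.967 with edgeR), and its sign turned under other settings as well. The SE of 0.56 leaves room for a difference in either direction.

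Within the class, piRNAdb-15 took 80.7% and 84.9% of the reads in crosslinked IP, against 28.8% and 27.7% in crosslinked input. It took 74.0% in non-crosslinked IP, against 24.1% in non-crosslinked input. The features of other classes whose pattern over the 6 libraries was most like it were tRNA genes, which encode the adaptors of translation. The highest Pearson correlations of log2(CPM + 1), among 5868 features with at least 100 reads, were with tRNA-Ala-CGC-1-2 (r = 0.999294), tRNA-Ala-AGC-1-1 (r = 0.99925) and 3 copies of tRNA-Arg-CCT (r between 0.998673 and 0.998727). Of the 25 most similar features 22 were tRNA entries, many of them copies of tRNA-Ala-AGC-2 with nearly the same levels. The share of tRNA entries among the 5868 features was not taken, so this count is not read as a result. These correlations describe 6 libraries that fall into pull-downs and inputs, and any feature recovered strongly over input scores high on them. The level of tRNA-Ala-CGC-1-2, for example, was 47.2 and 52.5 CPM in crosslinked IP, against 0.525 and 0.513 CPM in crosslinked input.

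The other 389 entries together held 0.376% and 0.323% of annotated reads in crosslinked IP, against 0.177% and 0.186% in crosslinked input. They held 0.556% in non-crosslinked IP, against 0.196% in non-crosslinked input. Their summed share was 1.93-fold higher in crosslinked IP than in crosslinked input, with both pull-downs above both inputs, and 2.84-fold higher in non-crosslinked IP than in non-crosslinked input. With rRNA left out of the total these ratios became log2 values of -0.18 with irradiation and -0.11 without it. The direction of the sum of these entries therefore turned with the share of rRNA in the libraries, whereas that of piRNAdb-15 did not.

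**Figure D1:**
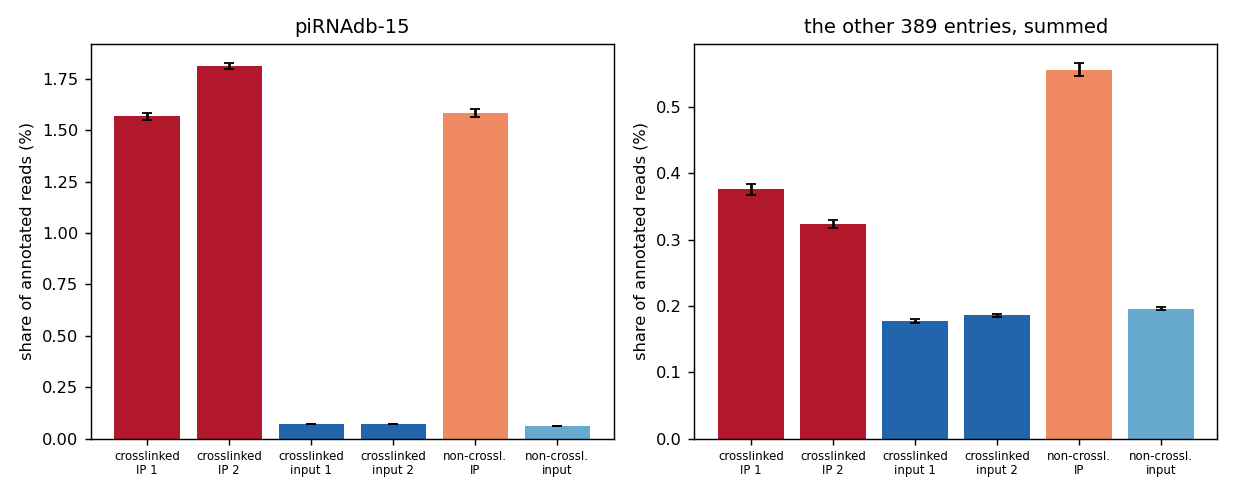
Share of annotated reads (%) on piRNAdb-15 (left) and on the other 389 piRNA cluster entries summed (right), 1 bar per library, with 95% Wilson intervals for counting error. On the left the 3 pull-down libraries hold 1.57% to 1.81% and the 3 inputs 0.0622% to 0.0716%.

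Most entries were sparsely read. The number listed was 301 and 299 in crosslinked IP, 319 and 328 in crosslinked input, 312 in non-crosslinked IP and 338 in non-crosslinked input. Only 224 were listed in all 6 libraries, and 103 had 3 reads or fewer in each of them. In the comparison of crosslinked IP with crosslinked input 178 entries passed the filter on low counts and 212 did not. The untested entries had at most 10 reads in a crosslinked IP library and 21 in a crosslinked input library, and held 2.94% of the reads of the class outside piRNAdb-15. Below, called means an adjusted p under 0.05 in edgeR's quasi-likelihood test.

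Of the 178 tested entries 61 were higher in crosslinked IP than in crosslinked input (34.3%, against 29.6% of all features tested). Lower were 47 (26.4%, against 26% of all features tested), and 70 were not called. Both shares lay near those of all features. Among entries with at least 10 reads in every library (81 tested) they did not: 45.7% were higher, against 32.9% of all features so filtered, and 19.8% lower, against 34.7%. The median log2 fold change was 0.27, or 0.25 without piRNAdb-15, against -0.03 over all features tested. It ran from 0.15 to 0.38 as single crosslinked libraries were left out, with 0.15 without crosslinked IP replicate 1 and without crosslinked input replicate 2, and 0.38 without crosslinked IP replicate 2. In CPM, 112 of the 178 tested entries had both pull-downs above both inputs (62.9%, against 56.3% of all features tested), and 42 had both below (23.6%, against 20.5%).

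The split rested on the scaling. Library size alone moved the median of all features by 0.79 and gave 96 higher and 25 lower entries (53.9% and 14%, against 44.4% and 7.88% of all features). Library size without rRNA moved it by -0.32 and gave 49 higher and 59 lower (27.5% and 33.1%, against 24.8% and 35.3% of all features). Under TMM, DESeq2 size factors and both of these, 49 entries were higher and 25 lower throughout. In the TMM fit and with each crosslinked library left out in turn, 45 were higher and 30 lower throughout.

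The entries fall into kinds by their names, and the kinds differed. Their counts stand beside 29.6% higher and 26% lower over all features tested, to which band entries lay nearer than arm-end and gene-named entries. Entries named for a chromosome arm and the word end (96 entries, 50 tested) had 29 higher and 3 lower, with a median log2 fold change of 1.20. Those named for a cytological band (119 entries, 63 tested) had 24 higher and 7 lower, with a median of 0.47. Entries named for a gene (153 entries, 58 tested) had 5 higher and 36 lower, with a median of -1.71. Untested entries are outside this median, and sparsely read gene-named ones went mostly the other way in CPM, as given below. Signs of these 3 medians were the same under the 4 scalings, at 0.88 to 2.00 for arm-end entries, 0.15 to 1.26 for band entries and -2.03 to -0.93 for gene-named entries. Besides piRNAdb-15, 10 entries are named for piRNAdb and a number, of which 6 were tested, with 2 higher and 1 lower. None of the 11 entries of Su(Ste), the repeats that silence Stellate in testis, passed the filter.

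**Figure D2:**
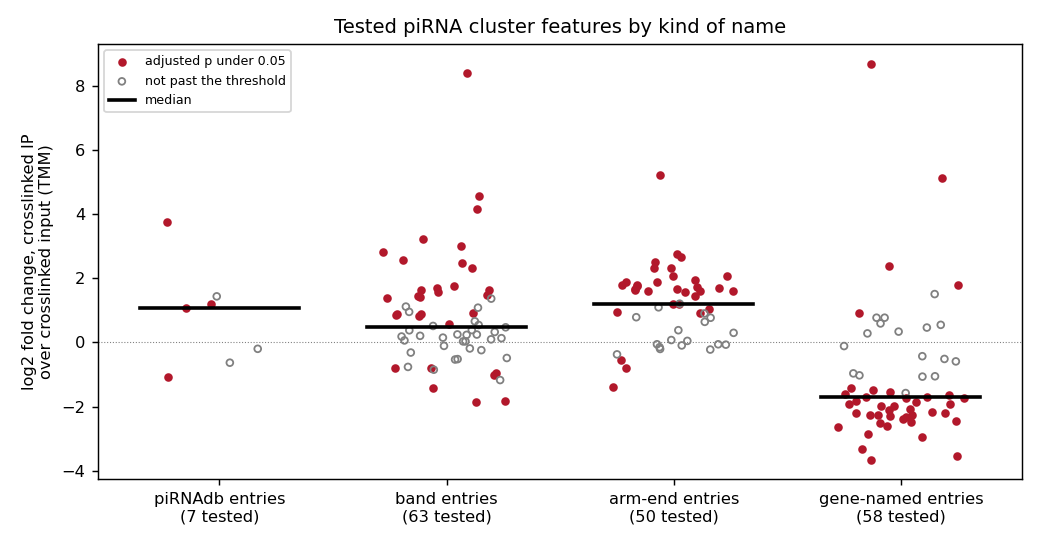
Log2 fold change of crosslinked IP over crosslinked input (TMM scaling) for the 178 tested entries, by kind of name. Filled points passed an adjusted p of 0.05, open points did not, and bars mark medians, which lie at 1.20 for arm-end entries and -1.71 for gene-named entries.

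The kinds also differed in how their reads were counted. Values above 0 were whole numbers in 31.7% of cases for arm-end entries, 76.0% for band entries and 99.0% for gene-named entries. A value that is not whole holds reads divided between features, as happens where a sequence lies at several places. The summed level of the arm-end entries was 2124 and 1549 CPM in crosslinked IP, against 873 and 925 CPM in crosslinked input. For band entries it was 1250 and 1281 CPM in crosslinked IP, against 569 and 607 CPM in crosslinked input. Both pull-downs thus lay above both inputs for each of these kinds. For gene-named entries it was 219 and 214 CPM in crosslinked IP, against 224 and 233 CPM in crosslinked input. What part read sharing has in the difference between the kinds was not tested.

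Where a name holds a chromosome arm, the X had the most tested and the most higher entries. The counts by arm stand beside the same 29.6% higher and 26% lower over all features tested. Of 54 entries on the X 41 were tested, with 26 higher, 1 lower and a median of 1.38. On 2R 30 of 63 were tested, with 12 higher and 5 lower. On 3L 21 of 42 were tested, with 9 higher and 2 lower. On 3R 12 of 26 were tested, with 2 higher and 1 lower, and on 2L 7 of 25, with 3 higher and 1 lower. On the X, 16 of 23 tested arm-end entries and 10 of 18 tested band entries were higher, so that both kinds were represented. Within a kind some other arms had similar or higher medians. For band entries the median was 0.89 on the X, 0.91 on 2R, 1.37 on 2L (5 tested), 0.17 on 3L and 0.14 on 3R. For arm-end entries it was 1.68 on the X, 1.62 on 3L and 0.30 on 2R. With 2 tested each, it was 3.65 on 3R and -0.37 on 2L. The median of the X entries lay between 1.05 and 2.17 under the 4 scalings, while those of 3L and 3R turned below 0 with library size without rRNA, at -0.09 and -0.04. These counts are descriptions of the entries, and the difference between arms was not tested.

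The next 12 entries after piRNAdb-15 by mean level held 57.1% to 65.6% of the reads of the other 389 in each library. The highest was chr3L-end.24, at 607 and 372 CPM in crosslinked IP, against 256 and 290 CPM in crosslinked input. It reached 1379 CPM in non-crosslinked IP, against 319 CPM in non-crosslinked input. All pull-downs were above all inputs in CPM, yet relative to the bulk of features the entry was not called, with a log2 fold change of 0.05 (SE 0.28, adjusted p = 0.888 with edgeR). chr2R-end.13 followed with 376 and 230 CPM in crosslinked IP, against 133 and 150 CPM in crosslinked input, and 801 CPM in non-crosslinked IP, against 169 CPM in non-crosslinked input. These levels ran in parallel with those of chr3L-end.24, at a ratio of 1.61 to 1.92 between the entries in the 6 libraries. Its log2 fold change was 0.30 (SE 0.27, adjusted p = 0.359 with edgeR). Both entries were lower in crosslinked IP than in non-crosslinked IP, by log2 differences of -1.30 (adjusted p = 0.0197) and -1.21 (adjusted p = 0.0252) with edgeR.

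chrX-end.26 was above its inputs in CPM but not relative to the bulk of features, with 333 and 347 CPM in crosslinked IP, against 229 and 225 CPM in crosslinked input, and was not called (log2 fold change -0.22, adjusted p = 0.391 with edgeR). Its direction turned with the scaling. chrX-end.25 had 138 and 45.3 CPM in crosslinked IP, against 36.7 and 23.8 CPM in crosslinked input. The pull-downs lay far apart, and with a log2 fold change of 0.77 (SE 0.48) it was not called (adjusted p = 0.195 with edgeR), though it was called in 5 of 14 other settings. chrX-end.57 was a higher entry of the same kind, at 86.0 and 71.8 CPM in crosslinked IP, against 12.2 and 12.1 CPM in crosslinked input. Its non-crosslinked IP value of 172 CPM, against 12.3 CPM in non-crosslinked input, was the highest of the 6. The log2 fold change with irradiation was 1.89 (SE 0.21, adjusted p = 0.000165 with edgeR). chr4-end.13 was not called, at 86.7 and 88.7 CPM in crosslinked IP, against 60.9 and 69.4 CPM in crosslinked input (log2 fold change -0.37, adjusted p = 0.118 with edgeR), though it was called lower in 3 of 14 other settings.

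Of these 12 entries the band entry chrX-5A3.1 had the largest log2 fold change over input. It had 360 and 341 CPM in crosslinked IP, against 32.3 and 36.2 CPM in crosslinked input. In the cells that were not irradiated it had 291 CPM in non-crosslinked IP, against 8.32 CPM in non-crosslinked input. Pull-downs and inputs did not overlap, and the inputs themselves differed between irradiated and non-irradiated cells. The log2 fold change was 2.56 (SE 0.21, adjusted p = 3.92e-05 with edgeR). The crosslinked IP over input ratio lay below the non-crosslinked one by -1.53 on the log2 scale, which did not pass the threshold (adjusted p = 0.0772 with edgeR).

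Of these 12 entries chrX-9B11.1 had the largest difference between crosslinked IP and non-crosslinked IP in either direction. It had 138 and 179 CPM in crosslinked IP, against 56.8 and 39.1 CPM in crosslinked input, and 34 CPM in non-crosslinked IP, against 47.9 CPM in non-crosslinked input. Only the crosslinked pull-downs stood above the other libraries. The log2 fold change over crosslinked input was 0.90 (SE 0.28, adjusted p = 0.0227 with edgeR), and that call was lost under 3 of 14 other settings (up to adjusted p = 0.177). Against non-crosslinked IP the log2 difference was 2.41 (SE 0.40, adjusted p = 0.000647 with edgeR).

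Lower entries were also found among the abundant ones. chr2R-42A14.2 had 75.0 and 82.7 CPM in crosslinked IP, against 159 and 166 CPM in crosslinked input, and 37.1 CPM in non-crosslinked IP, against 148 CPM in non-crosslinked input. All pull-downs were below all inputs, with a log2 fold change of -1.84 (SE 0.21, adjusted p = 0.00018 with edgeR). chr2R-52E5.1 had 35.8 and 42.8 CPM in crosslinked IP, against 56.8 and 63.1 CPM in crosslinked input, and a log2 fold change of -1.41 (SE 0.20, adjusted p = 0.000497 with edgeR). Both stayed past the threshold in all 14 other settings tried.

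Of the piRNAdb entries, piRNAdb-5 had 45.8 and 56.3 CPM in crosslinked IP, against 13 and 14.8 CPM in crosslinked input. Its highest level was 231 CPM in non-crosslinked IP, against 46.7 CPM in non-crosslinked input. It was higher in crosslinked IP than in crosslinked input (log2 fold change 1.08, SE 0.19, adjusted p = 0.00151 with edgeR). It was also lower in crosslinked IP than in non-crosslinked IP (log2 difference -1.97, adjusted p = 0.000327 with edgeR). piRNAdb-6 was not called over input, at 89.5 and 103 CPM in crosslinked IP, against 70.2 and 54.9 CPM in crosslinked input (log2 fold change -0.20, adjusted p = 0.492 with edgeR).

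**Figure D3:**
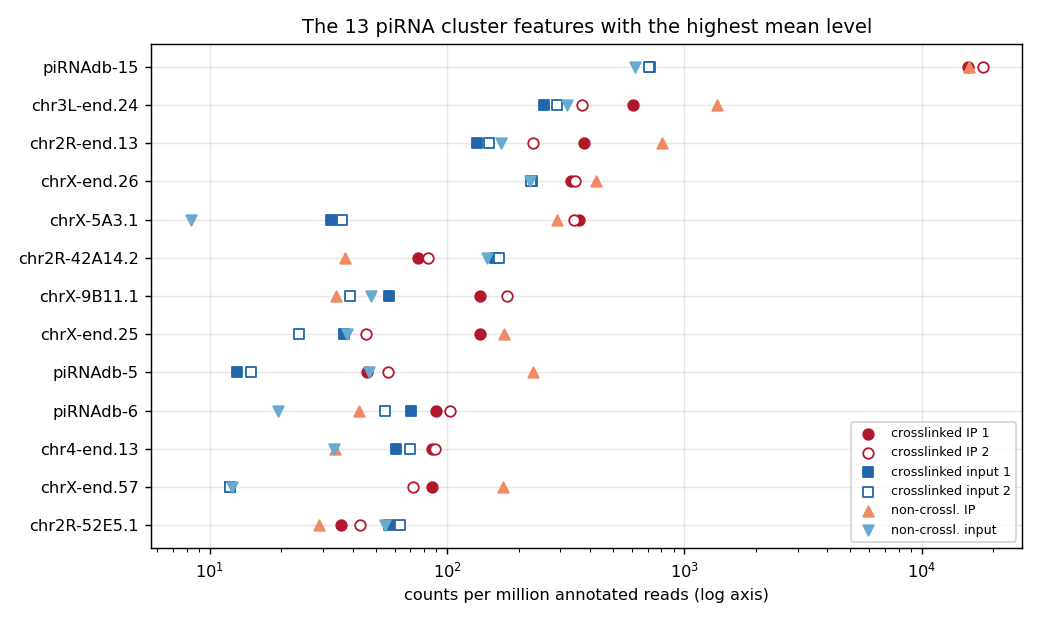
Level in CPM, on a log axis, of the 13 piRNA cluster entries with the highest mean, 1 point per library. For piRNAdb-15 and chrX-5A3.1 the 3 pull-downs lie right of the 3 inputs, for chr2R-42A14.2 left of them, and for chrX-9B11.1 only the crosslinked pull-downs stand to the right.

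flamenco appears in the class as the single entry flam.5. It had 26.0 and 24.7 CPM in crosslinked IP, against 3.86 and 4.56 CPM in crosslinked input, and 73.0 CPM in non-crosslinked IP, against 4.85 CPM in non-crosslinked input. All pull-downs were above all inputs, and the highest value was without irradiation. The log2 fold change over crosslinked input was 1.78 (SE 0.19, adjusted p = 0.000139 with edgeR). Against non-crosslinked IP the log2 difference was -1.33 (SE 0.25, adjusted p = 0.00156 with edgeR).

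Band 20A, in which flamenco lies, names 3 entries, of which 2 were tested and both were higher. chrX-20A1.1 had 36.9 and 46.3 CPM in crosslinked IP, against 8.51 and 7.41 CPM in crosslinked input, and 112 CPM in non-crosslinked IP, against 13.4 CPM in non-crosslinked input. chrX-20A3.1 had 21.6 and 17.7 CPM in crosslinked IP, against 1.86 and 2.67 CPM in crosslinked input, and 41.4 CPM in non-crosslinked IP, against 2.60 CPM in non-crosslinked input. As for flam.5, all pull-downs were above all inputs and the non-crosslinked IP was highest. Log2 fold changes over crosslinked input were 1.58 (adjusted p = 0.000464) and 2.32 (adjusted p = 0.000102) with edgeR. Both entries and flam.5 passed the threshold in all 14 settings. The log2 differences between crosslinked IP and non-crosslinked IP were -1.23 (adjusted p = 0.00695) and -0.89 (adjusted p = 0.0334) with edgeR.

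The flamenco gene is also annotated outside the class as a long non-coding RNA, lncRNA:flam, at X:21631891-21790731 of the RefSeq Release 6 assembly (158841 bp). Its 24 entries, 14 introns and 10 transcripts, summed to 1976 and 1526 CPM in crosslinked IP, against 232 and 269 CPM in crosslinked input. They summed to 4703 CPM in non-crosslinked IP, against 298 CPM in non-crosslinked input. Nearly all of these reads were intronic, and again the non-crosslinked IP was highest. That is 6.99-fold higher with irradiation and 15.8-fold higher without it, and 8 of 8 tested entries, all introns, were higher. The intron of the transcript flam-RG had a log2 fold change of 1.82 (SE 0.24, adjusted p = 0.00042 with edgeR).

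**Figure D4:**
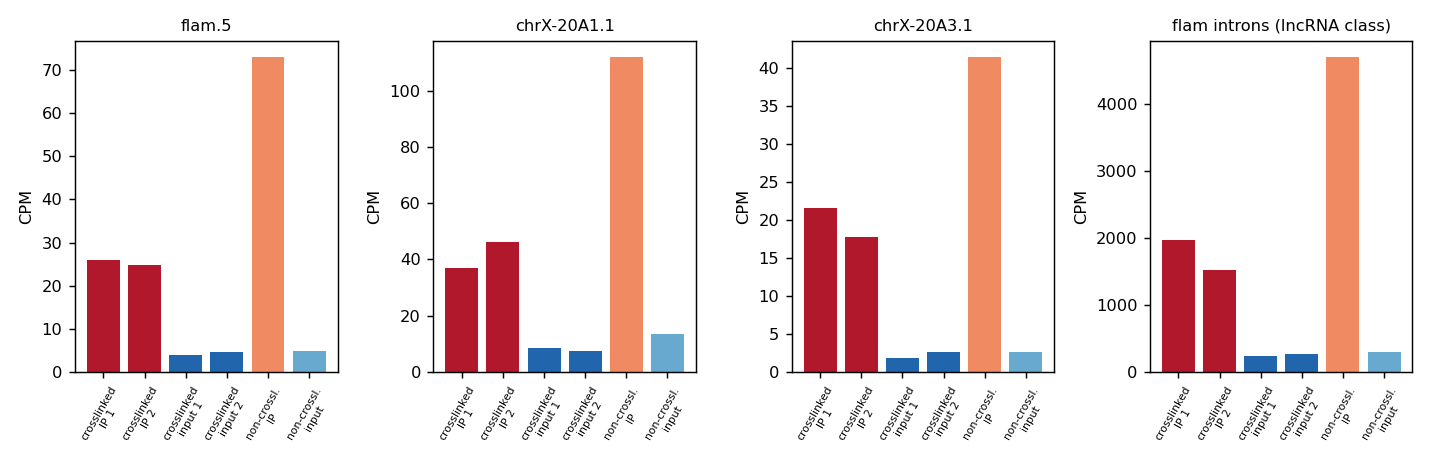
Level in CPM of flam.5, chrX-20A1.1 and chrX-20A3.1 and of the summed flam introns from the lncRNA class, 1 bar per library, each panel with its own axis from 0. In each panel the non-crosslinked IP is highest (73.0 CPM for flam.5) and the inputs lowest.

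The loci known as germline dual-strand clusters differed among themselves. Band 42A names 9 entries, which summed to 139 and 155 CPM in crosslinked IP, against 202 and 216 CPM in crosslinked input, and to 119 CPM in non-crosslinked IP, against 210 CPM in non-crosslinked input. The pull-downs were below the inputs, but this rested on chr2R-42A14.2. Without it the other 8 entries summed to 63.5 and 72.4 CPM in crosslinked IP, against 42.9 and 50.3 CPM in crosslinked input, and to 81.7 CPM in non-crosslinked IP, against 62.6 CPM in non-crosslinked input. Of 6 tested, 1 was higher and 1 lower. The higher one, chr2R-42A14.1, had 11.8 and 9.58 CPM in crosslinked IP, against 2.10 and 4.32 CPM in crosslinked input (log2 fold change 0.91, adjusted p = 0.0353 with edgeR), a call that held in 8 of 14 settings. Band 38C names 8 entries with at most 10 reads in any library, and the 1 tested was not called. They summed to 7.25 and 7.53 CPM in crosslinked IP, against 1.69 and 1.02 CPM in crosslinked input, and to 17.8 CPM in non-crosslinked IP, against 3.20 CPM in non-crosslinked input. Band 80F names 3 entries, which summed to 3.62 and 2.51 CPM in crosslinked IP, against 1.1 and 0.476 CPM in crosslinked input, and to 6.85 CPM in non-crosslinked IP, against 1.63 CPM in non-crosslinked input. In both bands all pull-downs were above all inputs and the non-crosslinked IP was highest, as for flam.5, at far fewer reads. Of these 3, 1 was tested. chr3L-80F1.1 was higher, at 8 and 7 reads in crosslinked IP, against 10 and 6 reads in crosslinked input (adjusted p = 0.038 with edgeR), a call that held in 8 of 13 settings. The names used here for 42A were picked by band after the values had been seen.

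The largest rises were of sparsely read entries. krz.1, named for the gene of the non-visual beta-arrestin Kurtz, had 23 and 29 reads in crosslinked IP and 0 and 0 reads in crosslinked input. It had 56 reads in non-crosslinked IP and 0 reads in non-crosslinked input. Set against a floor of 3 reads over both inputs, with TMM library sizes, it was at least 50.8-fold higher in crosslinked IP (adjusted p = 4.59e-05 with edgeR). chr2R-57D3.1 had 23 and 20.2 reads in crosslinked IP and 0 and 0 reads in crosslinked input, at least 42.1-fold higher (adjusted p = 0.000131 with edgeR). Both were present in each of the 3 pull-downs.

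Further rises had a few input reads, and their ratios of summed reads are given with counting intervals at TMM library sizes. chr3R-end.50 had 22.5 and 21.2 reads in crosslinked IP, against 2 and 1.25 reads in crosslinked input, a ratio of 43.0 (95% interval 13.8 to 216). CR44284.1, named for a non-coding gene, had 30 and 33 reads in crosslinked IP, against 3 and 2 reads in crosslinked input, a ratio of 36.9 (15.0 to 118). chr2R-55B1.2 had 20 and 7 reads in crosslinked IP, against 2 and 1 reads in crosslinked input, a ratio of 26.4 (8.11 to 136). The intervals of the 3 ratios are wide and overlap one another. chrX-1E5.1 had 31 and 32 reads in crosslinked IP, against 7 and 3 reads in crosslinked input, with a log2 fold change of 4.16 (SE 0.41, adjusted p = 0.000108 with edgeR). With so few input reads, all 6 of these rises passed the filter on low counts only through their pull-downs, which favoured a rise. They were called in all 13 other settings in which they were tried. Those settings use the same few reads, so this is no separate support.

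The largest falls were all of gene-named entries. hyd.1, named for the ubiquitin ligase gene hyperplastic discs, had 0 and 1 reads in crosslinked IP, against 22 and 19 reads in crosslinked input. Input exceeded pull-down 14-fold (95% interval 2.38 to 566) in summed reads at TMM library sizes (adjusted p = 0.00637 with edgeR). CG8184.1 had 1 and 1 reads in crosslinked IP, against 37 and 34 reads in crosslinked input, a ratio of input over pull-down of 12.1 (3.23 to 102). The same ratio was 10.2 (3.39 to 50.6) for poe.1, at 0 and 3 reads in crosslinked IP, against 49 and 41 reads in crosslinked input. It was 6.37 (2.07 to 31.8) for CG7518.1, at 1 and 2 reads in crosslinked IP, against 26 and 30 reads in crosslinked input. These pull-down values lie at or under the floor of 3 reads, and the calls of hyd.1 and CG7518.1 were lost in 1 of 13 other settings each. These entries passed the filter only through their inputs, which favoured a fall.

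spen.2, named for the nuclear RNA-binding protein Split ends, had 2 and 3 reads in crosslinked IP, against 59 and 55 reads in crosslinked input, with a log2 fold change of -2.94 (SE 0.45, adjusted p = 0.000851 with edgeR). zip.1, named for the non-muscle myosin heavy chain, had 1 and 3 reads in crosslinked IP, against 36 and 51 reads in crosslinked input, with a log2 fold change of -2.85 (SE 0.46, adjusted p = 0.00104 with edgeR). Non-crosslinked IP held 3 reads of spen.2 and 4 of zip.1, against 56 reads of each in non-crosslinked input. The low pull-down level of both was thus present without irradiation too. Both entries also passed the filter only through their inputs.

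Gene-named entries could be set beside the exons and introns of their own gene. Of 153 such entries, 150 had a gene name found in the RefSeq gene table. Among 40 with at least 50 reads over the crosslinked libraries for both entry and exons and reads in both groups, the median log2 CPM ratio of crosslinked IP over crosslinked input was -1.06 for the entries and -0.60 for the exons. Of these 40, 35 entries and 36 exon sums were below 0. krz.1 also had 50 reads or more but none in the inputs, so it has no ratio and is left out, and the exons of krz stood at 1.66. Among 20 with at least 50 reads for entry and introns, the median was -1.24 for the entries and 1.79 for the introns, with 17 entries and 0 intron sums below 0. Within this read minimum, the gene-named entries thus moved in the direction of the exons of their genes and opposite to the introns. The minimum draws mostly on the deeper inputs, so it favours entries that are high in input. Most gene-named entries with fewer than 50 reads that had a ratio had it above 0, so the direction does not hold for the whole kind. Across the 40 genes the correlation with the exons was r = 0.45, and across the 20 with the introns r = -0.11, where genes are not independent replicates. Class totals were whole numbers in every library, so reads were divided within a class and not between an entry and an exon. Whether a read can count in full for both is not given. The 5 gene-named entries that were higher were krz.1, CR44284.1, flam.5, l(2)gl.1 and Rab10.1, and this group was looked up after its values had been seen.

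Crosslinked IP was next compared with the pull-down from cells that were not irradiated, in a fit of all 6 libraries in which the single non-crosslinked libraries were assumed to vary like the others. Here 234 entries were tested. Higher in crosslinked IP were 20 (8.55%, against 3.57% of all features tested), and lower were 25 (10.7%, against 6.65% of all features tested). The median log2 difference was -0.14 for the tested entries, against 0.18 over all features. DESeq2 size factors gave 8 higher and 34 lower (3.42% and 14.5%, against 1.81% and 10.4% of all features). Library size alone gave 14 and 30 (5.98% and 12.8%, against 2.8% and 8.49%), and library size without rRNA 20 and 16 (8.55% and 6.84%, against 4.12% and 4.88%). They moved the median of all features by -0.43, -0.19 and 0.16. With at least 10 reads in every library (67 tested) 16.4% were higher, against 15.7% of all features so filtered, and 37.3% lower, against 17.2%. Under all 4 scalings 8 were higher and 16 lower. The counts also shifted when either crosslinked IP library was left out.

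The kinds are given here too, beside 3.57% higher and 6.65% lower over all features tested. Of 64 tested arm-end entries 3 were higher and 16 lower in crosslinked IP than in non-crosslinked IP, with a median log2 difference of -0.83. Of 86 tested band entries 12 were higher and 3 lower, with a median of 0.27. Gene-named entries had 3 higher and 5 lower of 75, both near the shares of all features, with a median of 0.07. Summed arm-end entries had 2124 and 1549 CPM in crosslinked IP, against 3791 CPM in non-crosslinked IP. Summed band entries had 1250 and 1281 CPM in crosslinked IP, against 1113 CPM in non-crosslinked IP.

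On the higher side, spn-E.1, named for the germline piRNA helicase Spindle-E, had 5 and 9 reads in crosslinked IP, against 0 reads in non-crosslinked IP, at least 2.11-fold higher against a floor of 3 reads (adjusted p = 0.0405 with edgeR). Its inputs held 30 and 25 reads with irradiation and 22 reads without it, and the call was lost under 4 of 10 other settings. chr3L-end.9 had 16.9 and 26.8 reads in crosslinked IP, against 2 reads in non-crosslinked IP (log2 difference 3.27, adjusted p = 0.00277 with edgeR). CR44894.1 had 35 and 35 reads in crosslinked IP, against 4 reads in non-crosslinked IP (log2 difference 2.97, adjusted p = 0.00175 with edgeR). Each crosslinked pull-down lay above the non-crosslinked one for these 3 entries.

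On the lower side, chr2R-42A15.3 had 0 and 2 reads in crosslinked IP, against 8 reads in non-crosslinked IP (adjusted p = 0.042 with edgeR). chr2R-end.11 had 6 and 2 reads in crosslinked IP, against 19 reads in non-crosslinked IP (log2 difference -2.37, adjusted p = 0.0117 with edgeR). Pura.1 had 2 and 4 reads in crosslinked IP, against 13 reads in non-crosslinked IP (log2 difference -2.24, adjusted p = 0.0286 with edgeR). All 3 rest on few reads in 1 non-crosslinked library.

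**Figure D5:**
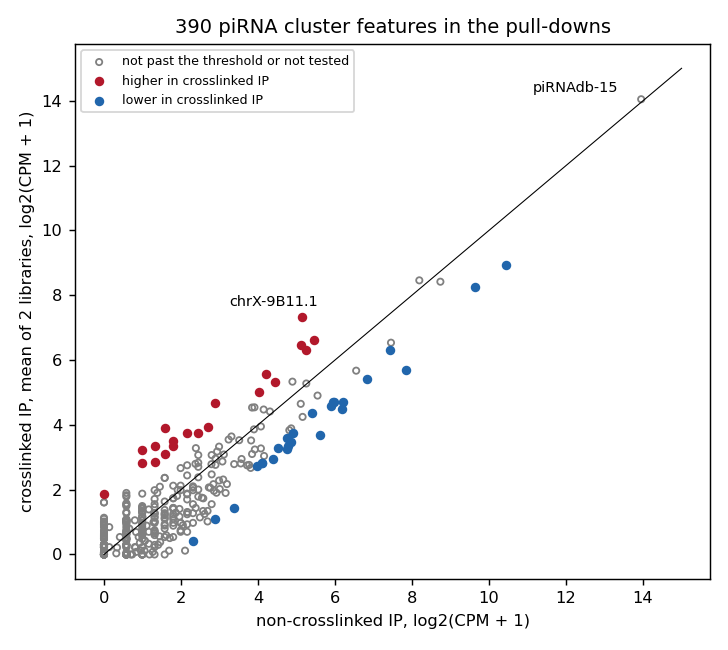
Mean level of the 390 entries in crosslinked IP (2 libraries) against the level in non-crosslinked IP (1 library), both as log2(CPM + 1), with the line of equality. piRNAdb-15 lies near the line at the upper right, 20 entries called higher in crosslinked IP lie above it and 25 called lower lie below it.

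Whether recovery over input differed with irradiation was tested as the difference between the IP over input ratios. Of 234 tested entries 9 had the higher ratio with irradiation (3.85%, against 1.86% of all features tested) and 1 had the lower (0.427%, against 0.842% of all features tested). In all, 50 of the 234 had an unadjusted p under 0.05 in edgeR's test. The same share over all features was not taken, so this count is not read as a result. Of the 9, 8 were band entries and 1, CR44894.1, was named for a non-coding gene. DESeq2 size factors left 1 higher and 1 lower (against 0.153% and 0.738% of all features), library size alone 5 and 2 (against 1.28% and 1.3%), and library size without rRNA 14 and 1 (against 3.15% and 0.762%). The lower count rose when either crosslinked IP library was left out.

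CR44894.1 showed the largest such difference, with 15.9 and 12 CPM in crosslinked IP, against 6.46 and 6 CPM in crosslinked input, and 1.98 CPM in non-crosslinked IP, against 8.16 CPM in non-crosslinked input. It stood above its input with irradiation and below it without. chrX-12F3.2 had 13.6 and 15.1 CPM in crosslinked IP, against 2.58 and 3.73 CPM in crosslinked input, and 5.45 CPM in non-crosslinked IP, against 6.64 CPM in non-crosslinked input. chr2L-36E5.1 had 19.5 and 24.8 CPM in crosslinked IP, against 3.95 and 5.56 CPM in crosslinked input, and 13.4 CPM in non-crosslinked IP, against 11.7 CPM in non-crosslinked input. For both, the ratio without irradiation was close to 1. The only entry the other way was CG4266.1, at 13.6 and 9.93 CPM in crosslinked IP, against 10.4 and 8.49 CPM in crosslinked input, and 48.1 CPM in non-crosslinked IP, against 4.88 CPM in non-crosslinked input.

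The genes that act on piRNA clusters and their transcripts were read for comparison. The list held 30 piRNA pathway genes, mostly of the somatic pathway, with the germline marker rhi and with del and cuff. Of these genes 28 had exon entries, and 31 of 155 exon entries were tested in crosslinked IP over crosslinked input. Of those, 2 were higher, both of piwi, the nuclear Piwi protein itself, and 14 were lower. Over all features tested 29.6% were higher and 26% lower. The 14 lower entries included 1 of piwi, which had 6 tested, and 1 of del. The piwi exons summed to 207 and 144 CPM in crosslinked IP, against 28.5 and 35.4 CPM in crosslinked input, and to 517 CPM in non-crosslinked IP, against 24.2 CPM in non-crosslinked input. As for flam.5, the non-crosslinked IP was highest and all pull-downs were above all inputs. Exon entries of arx, the gene of the tagged protein, had at most 2.5 reads in any library.

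LTR entries whose element name starts with ZAM, Idefix or Gypsy were read too. These names were chosen for elements with remnants in, or silenced by, flamenco. Which of the 1927 entries so named for Gypsy belong to such an element was not checked. The counts stand beside the same 29.6% higher and 26% lower over all features tested. Of 41 tested entries of ZAM 34 were higher and 2 lower, of 64 tested Gypsy entries 34 were higher and 4 lower, and of 2 tested Idefix entries 2 were higher. The summed ZAM level was 6577 and 8169 CPM in crosslinked IP, against 3513 and 4825 CPM in crosslinked input, and 5187 CPM in non-crosslinked IP, against 4532 CPM in non-crosslinked input. ZAM was higher in both crosslinked pull-downs than in non-crosslinked IP, and so was Gypsy, at 1944 and 1975 CPM in crosslinked IP, against 1764 CPM in non-crosslinked IP. Idefix was lower in both, at 62.4 and 43.1 CPM in crosslinked IP, against 114 CPM in non-crosslinked IP, as flam.5 was. Copies of an element share reads, so these entries are not independent.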

How the data were processed

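Each of the 6 libraries had a table in which the authors deposited estimated counts per annotated feature, with reads divided between features, and the same values as RPM, scaled to the sum of the estimated counts including reads outside annotation. The submitters' processing notes name bcl2fastq 2.19, STAR 2.5.2b and bedtools 2.29.0 and the builds dm6 and mm10, without roles. Read filters, duplicate removal, strand and the positions and lengths of the clusters are not given in the sources used here, so levels are not per length, overlapping and antisense features are uncertain, and no sequences are shown. The members, kinds and lists were chosen with earlier results of these data known.

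Estimated counts were rounded and fitted with edgeR 4.0.16 in R 4.3.3 over all features with filterByExpr, TMM factors and library sizes of annotated reads, which leaves out the 2.15% to 13.6% of reads without annotation. The quasi-likelihood F test was two-sided, adjusted by Benjamini-Hochberg over all features, with a threshold of 0.05. One fit held the 2 crosslinked groups and another all 4 groups. The SE was taken from the F statistic, as the absolute log2 fold change over its square root. On simulated data with 200 of 13471 features changed 4-fold, the first fit recovered 92.5% of them, and 6.57% of its calls were unchanged features. The changed features were drawn only from those expected to reach 10 reads in the smallest library, and all features had a common dispersion. In the data themselves 7484 of 13471 features were called. These rates therefore do not cover sparsely read entries or so large a share of changed features. Replicates differed by more than sampling noise (chi-square per degree of freedom 6.36 for crosslinked IP and 7.53 for crosslinked input). Deviations of same-numbered libraries from their group means correlated at r = 0.0956 over 1960 features, and the labels do not tie the numbers to a shared culture.

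Entries named were the most abundant by mean CPM, the next 12, the 6 largest rises and 6 largest falls with both libraries on 1 side of both inputs, up to 3 each way between the pull-downs, and flamenco, 20A, 38C, 42A and 80F. Alternatives were DESeq2 1.42.0 (size factors and Wald test), limma 3.58.1 on the RPM values with a pseudocount of 1, other library sizes, filters, thresholds, a replicate block, all 6 libraries in 1 fit and each crosslinked library left out. Gene names were matched to a RefSeq table of the Release 6 assembly. Tables were made with scipy 1.17.1, numpy 2.4.6 and pandas 2.3.3 in Python 3.11.15, and figures with matplotlib 3.10.9. A further table by the authors, of 1 ratio per feature, was not used because its formula is not stated.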

Additional observations from a re-analysis of the deposited data

Results flagged for a closer look

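For 10 entries the IP over input ratio differed between irradiated and non-irradiated cells by the test of that difference in edgeR, and no entry was looked at for single libraries that stand apart, since groups hold 1 or 2 libraries. The differences, crosslinked minus non-crosslinked log2 ratio, were 3.41 for CR44894.1 (adjusted p = 0.00686), 2.90 for chrX-3D5.1 (adjusted p = 0.0146), 2.71 for chrX-12F3.2 (adjusted p = 0.00486), 2.65 for chr2L-26A1.1 (adjusted p = 0.0254) and 2.43 for chrX-9B11.1 (adjusted p = 0.016). They were 2.28 for chr2L-36E5.1 (adjusted p = 0.00753), 1.96 for chr3R-83D5.1 (adjusted p = 0.0299), 1.68 for chr3L-64C1.1 (adjusted p = 0.0454) and 1.68 for chrX-18C2.1 (adjusted p = 0.0391), all with edgeR. CG4266.1 differed the other way, by -2.77 (adjusted p = 0.00228 with edgeR). In CPM, chrX-3D5.1 had 9.97 and 8.56 in crosslinked IP, against 1.45 and 1.90 in crosslinked input, and 2.48 in non-crosslinked IP, against 2.88 in non-crosslinked input. Each value without irradiation comes from 1 library.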

How the results depend on the processing

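In crosslinked IP over crosslinked input, 61 entries were higher and 47 lower in the main fit. Library size alone gave 96 and 25, and at least 10 reads in every library (81 entries tested) 37 and 16. Their shares beside all features are given above. DESeq2's Wald test gave 40 and 22 (22.5% and 12.4%, against 19.4% and 8.96% of all features). limma on RPM gave 93 and 28 (52.2% and 15.7%, against 43.3% and 11.2% of all features). The counts also shifted as single libraries were left out. The median without piRNAdb-15, 0.25 as reported, was 1.04 with library size alone, -0.0759 with library size without rRNA, 0.0725 with no filter, 0.53 with at least 10 reads in every library, 0.71 with limma on RPM, and 0.15 to 0.38 with single libraries left out. The fold change of piRNAdb-15 was 3.59 to 3.84 with libraries left out and called in all settings tried. With rRNA left out of the total, the log2 ratio of shares was 3.44 for piRNAdb-15 and -0.18 for the other entries, and without single libraries it was 4.46 to 4.67 and 0.83 to 1.05.

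Several entries that were not called changed sign. chr3L-end.24 was at -0.29 with library size without rRNA, -0.29 with no filter, -0.21 with at least 10 reads, -0.0173 in the fit of all 6 libraries and -0.38 without crosslinked IP replicate 1, the lowest of a range up to 0.38. chr2R-end.13 was at -0.0419 with library size without rRNA, -0.0356 with no filter, and -0.13 to 0.63 with single libraries left out. With library size alone and with limma on RPM, chrX-end.26 was at 0.59 and 0.49, piRNAdb-6 at 0.62 and 0.53 and chr4-end.13 at 0.43 and 0.33. Some of these entries were called under an alternative. chr4-end.13 was called lower with library size without rRNA (-0.70), no filter (-0.68) and at least 10 reads (-0.62), by edgeR at adjusted p = 0.00817, 0.0295 and 0.0149. chrX-end.26 was called higher with library size alone and limma but lower with library size without rRNA (-0.54), by edgeR at adjusted p = 0.0265. With library size alone, edgeR called piRNAdb-6, chr3L-end.24 (0.84), chr2R-end.13 (1.09) and chrX-end.25 (1.59) higher, and limma called the last 3 (0.71, 0.95 and 1.30). chrX-end.25 was also called without crosslinked IP replicate 2 and without crosslinked input replicate 1 (1.39 and 1.18). With single libraries left out, chrX-end.25 ran from -0.27 (without crosslinked IP replicate 1) to 1.39, and piRNAdb-6 from -0.51 to 0.0726 (without crosslinked input replicate 1).

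Between the pull-downs, against 20 higher and 25 lower, DESeq2 size factors gave 8 higher, at least 10 reads 11 higher, DESeq2's Wald test 1 higher and 11 lower, and library size without rRNA 16 lower, and leaving out single libraries gave 9 to 19 higher and 18 to 52 lower. With DESeq2's Wald test 0.427% of tested entries were higher, against 1.06% of all features, and 4.70% lower, against 1.99%. The excess of higher entries in the main fit (8.55%, against 3.57% of all features) was thus not seen with that test. The share of all features called shifted too as libraries were left out, so those counts alone are not read as a change in the class. The difference of piRNAdb-15 was -0.14 with DESeq2 size factors and with DESeq2's Wald test, and -0.20 to 0.29 with libraries left out. For the difference between ratios, 9 entries were higher and 1 lower in the main fit. DESeq2 size factors gave 1 higher, library size alone 5 and 2 and library size without rRNA 14 higher, with shares of all features given above. At least 10 reads gave 12 lower (17.9%, against 12.5% of all features so filtered). DESeq2's Wald test gave 0 and 2 (against 0.0396% and 0.579% of all features), and limma on RPM 0 and 0 (against 0.149% and 0.218%). Leaving out libraries shifted the counts too. For piRNAdb-15 the difference between ratios was -0.29 with DESeq2 size factors and with its Wald test, and -0.10 with library size alone. It was -0.0559 with at least 10 reads, -0.0390 with limma on RPM and -0.29 to 0.27 with libraries left out. The causes were not tested.

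The replicate number as a block gave 64 higher and 51 lower (36.0% and 28.7%, against 30.7% and 28.6% of all features). It gave a median of 0.25 and 3.76 for piRNAdb-15, moving no count by over 1.5 times. Among named entries it changed 1 call, that of chrX-end.25, to 0.64 (adjusted p = 0.022 with edgeR). With 2 pairs and no shared culture stated, the pairing is not shown. Depth limits the sparse entries: 212 of 390 were not tested, and at 3 reads a pull-down cannot show a level under about 1.03 CPM.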
